A study of Mus musculus with 2 samples.

Results

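The 7 genes described here, *Hmgcs1*, *Idi1*, *Fdps*, *Fdft1*, *Sqle*, *Lss* and *Insig1*, belong to the cholesterol synthesis pathway, and they were chosen by name among the 27514 genes of the count matrix, with earlier results of these data known. All 7 were found and gave UMIs (unique molecular identifiers, each of which tags 1 captured transcript) in both libraries. They were measured by single-cell RNA-seq in cells of the mouse dorsal aorta region at embryonic day 10.5, when hematopoietic stem and progenitor cells bud from hemogenic endothelium, and the comparison asked what changes in the absence of SP3, a transcription factor that binds GC-rich promoters. Both parents of the embryos were heterozygous (Sp3+/-), on a C57Bl6/J x B6129SF1/J background, and the genotypes compared were WT and SP3KO, the second carrying no functional SP3. Cells were stained for Ter119, ESAM, CD41, CD144 and CD31, pooled by genotype and sorted for endothelium, so that each genotype was captured once, and how many embryos went into either pool is not known here. Genotype, pool and library therefore cannot be told apart, no test was made, and every interval below is a 95% interval of counting error alone.

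Cholesterol is built from acetyl-CoA by a chain of enzymes that first make mevalonate, then isoprenoid units, then squalene, and finally close the sterol rings. When sterols in the membrane of the endoplasmic reticulum run low, SCAP carries the transcription factor SREBP2 to the Golgi, where it is cut free to switch on the genes of the whole chain, while INSIG1 holds the complex back when sterols are plentiful. At many of these promoters SREBPs are known to act together with SP factors and NF-Y, which bind neighbouring GC boxes and CCAAT boxes.

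Promoters of 4 of the 7 genes were found in the RefSeq promoter table (GRCm38.p6), each a window from 250 bases before to 50 bases after the start that the table uses, and 3 are printed because they show how differently the same motif classes are laid out. The capitals mark matches, on either strand, to TCACNCCAC (a core of the sterol regulatory element that SREBPs bind), GGGCGG (the GC box that SP factors bind) and CCAAT (the NF-Y box), none of which overlap here. The windows lie at chr13:119690101-119690400 for *Hmgcs1*, chr13:8885356-8885655 for *Idi1* and chr5:28071162-28071461 for *Insig1*, all on the plus strand.
Hmgcs1: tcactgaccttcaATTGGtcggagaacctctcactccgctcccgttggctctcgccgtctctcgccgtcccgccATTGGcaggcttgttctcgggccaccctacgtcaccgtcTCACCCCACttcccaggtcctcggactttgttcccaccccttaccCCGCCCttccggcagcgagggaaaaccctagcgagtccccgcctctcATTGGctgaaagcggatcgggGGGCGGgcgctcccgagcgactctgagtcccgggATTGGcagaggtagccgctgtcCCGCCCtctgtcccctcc
Idi1: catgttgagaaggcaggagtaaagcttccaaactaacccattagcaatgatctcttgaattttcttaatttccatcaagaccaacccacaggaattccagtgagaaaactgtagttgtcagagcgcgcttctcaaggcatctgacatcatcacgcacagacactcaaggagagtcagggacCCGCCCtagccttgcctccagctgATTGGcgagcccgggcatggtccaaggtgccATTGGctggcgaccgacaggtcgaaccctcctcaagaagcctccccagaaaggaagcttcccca
Insig1: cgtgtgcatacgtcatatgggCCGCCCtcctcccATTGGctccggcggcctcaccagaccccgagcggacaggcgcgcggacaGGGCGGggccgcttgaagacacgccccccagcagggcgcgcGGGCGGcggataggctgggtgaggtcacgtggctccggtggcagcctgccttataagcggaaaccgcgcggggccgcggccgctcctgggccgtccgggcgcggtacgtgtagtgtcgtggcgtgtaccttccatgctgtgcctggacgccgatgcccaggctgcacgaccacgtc

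*Hmgcs1* held 1 sterol regulatory element, beginning 137 bases before the start, with 3 GC boxes and 4 CCAAT boxes. *Idi1* held 1 GC box and 2 CCAAT boxes, and *Insig1* held 3 GC boxes and 1 CCAAT box in the first part of its window. In *Lss*, whose window lies at chr10:76531355-76531654 on the plus strand and is set on a start downstream of the first base of the gene given with its values, there were 2 GC boxes and 1 CCAAT box. Over all 32851 promoters of the table, 1.24% held the sterol regulatory element, 35.7% a GC box and 37.4% a CCAAT box. The E-box CACGTG, to which SREBPs can also bind, was found in 1 of the 4 windows, that of *Insig1* 101 bases before the start, against 7.15% of all promoters. These matches describe letters only, and no binding was measured here. *Fdps*, *Fdft1* and *Sqle* are described by their values alone.

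The wild-type library held 4451 cells with a median of 14664 UMIs per cell, and the SP3KO library held 3954 cells with a median of 15638.5. The authors assigned each cell to a class of the path from endothelium to blood, and 9 classes were used here. These were arterial endothelium (AE) and venous endothelium (VE), each split into Wnt-high and Wnt-low, other endothelium, conflux AE, pre-hemogenic endothelium (pre-HE), hemogenic endothelium (HE) and intra-aortic hematopoietic cluster cells (IAC). The smallest of them, HE, held 59 and 40 cells, and 1 wild-type cell of another class was not used. Between the libraries, 5 cell barcodes were shared. Levels are given in CPM, the UMIs of a gene for every 1000000 UMIs of its class. Single markers were found in pre-HE, HE and IAC. In the wild-type and SP3KO libraries *Hey2* reached 124 and 136 CPM in pre-HE, *Runx1* 356 and 242 CPM in HE, and *Ptprc* 69.7 and 86.4 CPM in IAC. Marker lists followed the names only in part. The hemogenic list was highest in HE in the wild-type library (521 CPM) but in IAC in the SP3KO library (519 CPM). The venous list was highest in other endothelium, at 1346 and 1330 CPM, and the arterial list in pre-HE, at 3146 and 3349 CPM. The 4 hepatic and endodermal markers summed to at most 3.35 CPM in any class.

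Relative to all transcripts, the sum of the 7 genes was highest in conflux AE and lowest in IAC in both libraries. Gene by gene, conflux AE had the highest level of all 7 in the wild-type library but of 4, *Hmgcs1*, *Idi1*, *Fdps* and *Fdft1*, in the SP3KO library. IAC had the lowest level of all but *Idi1* in the wild-type library and of all but *Idi1* and *Lss* in the SP3KO library. The summed level in conflux AE was 778 CPM (95% Poisson interval 741 to 816) for the wild type and 728 CPM (685 to 773) for SP3KO. In AE as a whole it was 524 and 510 CPM, and in IAC 247 CPM (232 to 262) and 247 CPM (231 to 264). In the wild-type library the order from the highest was conflux AE, Wnt-low AE, Wnt-low VE, Wnt-high AE, Wnt-high VE, other endothelium, pre-HE, HE and IAC. Each class exceeded the next beyond its counting interval except Wnt-high VE over other endothelium and other endothelium over pre-HE. In the SP3KO library the first 3 and the last 2 places were taken by the same classes, with Wnt-low VE, pre-HE, Wnt-high AE and other endothelium, at 500, 485, 483 and 475 CPM, not separated from their neighbours in that order. The log2 ratio to AE was 0.57 (0.49 to 0.65) and 0.51 (0.42 to 0.61) in conflux AE, -0.27 (-0.39 to -0.15) and -0.07 (-0.22 to 0.07) in pre-HE, -0.56 (-0.71 to -0.42) and -0.45 (-0.61 to -0.29) in HE, and -1.09 (-1.18 to -0.99) and -1.05 (-1.15 to -0.95) in IAC.

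**Figure D1:**
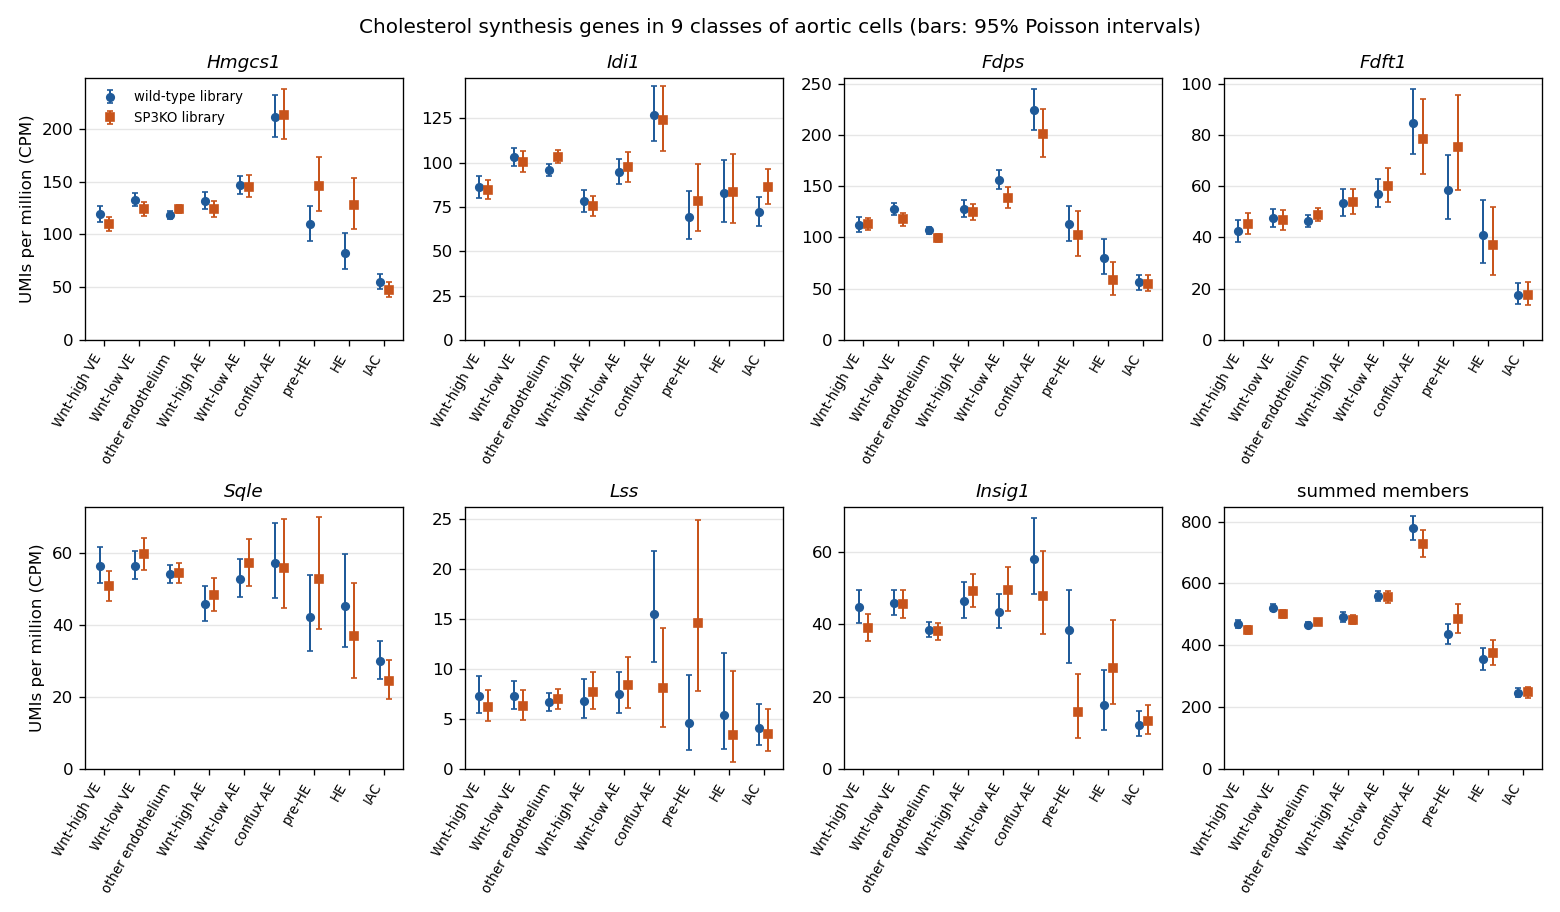
Level of each of the 7 genes and of their sum in 9 classes (x axis), in CPM (y axis, a separate scale per gene), with circles for the wild-type and squares for the SP3KO library and bars for 95% Poisson intervals. The sum peaks in conflux AE at 778 and 728 CPM and is lowest in IAC at 247 CPM in both libraries, while *Idi1* stays at 72.1 and 86.1 CPM in IAC and *Sqle* stays between 45.7 and 59.7 CPM from VE to conflux AE.

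The scale of that pattern depends on the total RNA counted per cell, which differed between classes. Cells of conflux AE and pre-HE had medians of 8850 to 9257.5 UMIs, those of IAC medians of 30343 and 31009. Counted per cell with no scaling, the 7 genes together gave 8.22 and 7.83 UMIs in AE, 8.81 and 7.45 UMIs in conflux AE, 4.92 and 4.70 UMIs in pre-HE, 6.76 and 8.38 UMIs in HE, and 8.13 and 8.04 UMIs in IAC, in the wild-type and SP3KO libraries. Per cell, conflux AE was thus at 1.07-fold and 0.951-fold of AE and IAC at 0.988-fold and 1.03-fold, while pre-HE stood at 0.60-fold of AE in both libraries. The step from conflux AE to pre-HE, 2 classes of like total, went down on both scales. For the other steps, a change in these transcripts and a change in the total of the cells cannot be told apart.

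At the head of the pathway, *Hmgcs1* encodes the cytosolic HMG-CoA synthase, which makes the precursor of mevalonate (chromosome 13, 119690351 to 119708260, GRCm38.p6). In conflux AE its level was 211 CPM (wild type) and 213 CPM (SP3KO), compared with 139 and 132 CPM across AE and 55.0 and 47.4 CPM among IAC. The values of both libraries lay together in these 3 classes, and conflux AE was above every other class beyond its counting interval in both. In pre-HE, *Hmgcs1* reached 109 CPM (wild type) and 146 CPM (SP3KO), and in HE it reached 82.7 and 127 CPM. The SP3KO library was thus the higher one in both stages.

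*Idi1*, the isomerase that balances the pair of isoprenoid building blocks (chromosome 13, 8885606 to 8892396), departed from the others in blood cells. It was highest in conflux AE, at 127 CPM (wild type) and 124 CPM (SP3KO), against 86.5 and 83.7 CPM in AE. In IAC it stood at 72.1 and 86.1 CPM, and its log2 ratio to AE there was -0.26 (-0.45 to -0.08) and 0.04 (-0.15 to 0.23), where that of *Hmgcs1* was -1.34 (-1.54 to -1.14) and -1.48 (-1.72 to -1.25). With no scaling, *Idi1* gave 2.38 and 2.80 UMIs per cell in IAC and 1.36 and 1.28 in AE, a ratio of 1.75 and 2.18. *Idi1* was also above AE in VE, with log2 ratios of 0.16 (0.06 to 0.26) and 0.15 (0.05 to 0.25), where *Hmgcs1*, *Fdps* and *Fdft1* were below it.

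*Fdps* encodes farnesyl diphosphate synthase, whose product feeds both sterols and protein prenylation (chromosome 3, 89093588 to 89101967). Conflux AE carried 224 CPM (wild type) and 201 CPM (SP3KO) of it and AE 142 and 130 CPM. From conflux AE onward its level went down to 113 and 102 CPM in pre-HE, then to 80.0 and 58.1 CPM in HE, and ended at 56.0 and 54.8 CPM among IAC. The step from HE to IAC lay within counting error in the SP3KO library (log2 -0.08, -0.53 to 0.39), and the other steps did not. The SP3KO value was the lower one in all 5 classes, although only in AE did the interval of the ratio leave 0 (log2 -0.13, -0.22 to -0.04). The fall from conflux AE to pre-HE was -0.99 (-1.25 to -0.74) and -0.98 (-1.33 to -0.63) on the log2 scale. Counted per cell with no scaling, *Fdps* also fell at that step, from 2.54 and 2.06 UMIs to 1.27 and 0.989 UMIs. After pre-HE the count per cell rose in both libraries, through HE to 1.84 and 1.79 UMIs in IAC. The falls after pre-HE thus held only relative to all transcripts.

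The next enzymes commit the chain to sterols. *Fdft1*, squalene synthase, joins farnesyl units to squalene (chromosome 14, 63145150 to 63181687), and it stood at 84.5 CPM (wild type) and 78.2 CPM (SP3KO) in conflux AE. The corresponding levels were 55.2 and 56.2 CPM across AE and 17.6 and 17.5 CPM among IAC. Its log2 ratio of IAC to AE was -1.65 (-2.02 to -1.31) and -1.68 (-2.08 to -1.31). In pre-HE *Fdft1* stayed at or above its level in AE, at 58.6 and 75.2 CPM, and in the SP3KO library conflux AE and pre-HE did not differ beyond counting error.

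*Sqle*, the squalene epoxidase that adds the oxygen needed for ring closure (chromosome 15, 59315092 to 59331193), stayed between 42.3 and 59.7 CPM in the classes other than HE and IAC. Its levels were 57.3 CPM (wild type) and 56.0 CPM (SP3KO) in conflux AE, close to 49.3 and 51.6 CPM in AE, with log2 ratios of 0.22 (-0.07 to 0.49) and 0.12 (-0.23 to 0.45) whose intervals span 0. In VE it was at 56.5 and 55.3 CPM, above AE in the wild-type library (log2 ratio 0.20, 0.06 to 0.33) but not beyond counting error in the SP3KO library (0.10, -0.03 to 0.23). In the SP3KO library Wnt-low cells exceeded Wnt-high cells, by 0.24 (0.02 to 0.46) in AE and 0.23 (0.07 to 0.40) in VE. Over both libraries, next neighbours in the order of levels differed beyond counting error only at the last place of the wild-type order, pre-HE over IAC (0.50, 0.05 to 0.94). In IAC *Sqle* was at 29.9 and 24.4 CPM, with log2 ratios to AE of -0.72 (-1.01 to -0.45) and -1.08 (-1.42 to -0.76). With no scaling it was not lower there. *Sqle* gave 0.984 and 0.794 UMIs per cell in IAC and 0.773 and 0.792 in AE, a ratio of 1.27 and 1.00.

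*Lss*, lanosterol synthase, closes the first sterol ring system (chromosome 10, 76531565 to 76557139). It gave 553 UMIs in the wild-type and 485 in the SP3KO library over all cells, so that single classes rest on few UMIs. In conflux AE it was at 15.5 CPM (wild type, 33 UMIs) and 8.09 CPM (SP3KO, 12 UMIs), against 7.13 and 7.92 CPM in AE. In pre-HE the order of the libraries was the opposite one, with 4.55 CPM from 7 UMIs and 14.6 CPM from 13 UMIs. In IAC both libraries were low again, at 4.03 and 3.44 CPM. With no scaling, *Lss* gave 0.133 and 0.112 UMIs per cell in IAC and 0.112 and 0.121 in AE.

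*Insig1*, itself a target of SREBP2 and the sterol-dependent brake on its release, followed the enzymes in IAC but less so in conflux AE (chromosome 5, 28071412 to 28078662). Conflux AE carried 58.2 CPM (wild type) and 47.9 CPM (SP3KO), AE 45.0 and 49.3 CPM, and IAC 12.1 and 13.2 CPM. Conflux AE had a log2 ratio to AE of 0.37 (0.08 to 0.65) in the wild-type library and of -0.04 (-0.42 to 0.31) with SP3KO cells. That of IAC to AE was -1.90 (-2.34 to -1.48) and -1.90 (-2.37 to -1.47), the lowest ratio among the 7 genes. Also with no scaling, *Insig1* was lower in IAC, at 0.398 and 0.430 UMIs per cell against 0.706 and 0.757 in AE.

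Set against all genes, the members were lower as a group at the step from conflux AE to pre-HE. A gene was counted there as lower where its CPM fell by at least 1.5-fold in both libraries, among genes with at least 50 UMIs over the pair of classes in each library. This held for 3.57% of 5708 genes and for 3 of the 6 members that passed the minimum, *Idi1*, *Fdps* and *Insig1*, with *Lss* below it. All 6 were lower in both libraries, with a median log2 ratio of -0.74 in the wild-type and -0.60 in the SP3KO library, against 0.04 and 0.05 over all genes. In conflux AE over AE, 7.21% of 9718 genes were at least 1.5-fold higher in both libraries, among them 2 of 7 members, *Hmgcs1* and *Fdps*. There 6 of 7 members were higher in both libraries, all but *Insig1*, and the members' median was 0.60 and 0.48 against -0.01 and 0.00 over all genes. Of all genes, 50.8% and 49.9% lay below 0 in conflux AE over AE. From conflux AE to pre-HE the share below 0 was 44.4% in each library.

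In IAC over AE, 22.4% of 10050 genes were at least 1.5-fold lower in both libraries, among them 6 of 7 members, all but *Idi1*. The members' median was -1.34 and -1.24, against 0.00 and 0.01 over all genes. From pre-HE to HE 13.9% of 4976 genes were lower by this measure and 0 of the 5 members that passed the minimum, and from HE to IAC 9.63% of 7111 genes and 3 of 6 members, *Hmgcs1*, *Fdft1* and *Sqle*. Between the Wnt classes differences were smaller. The summed level was higher in Wnt-low than in Wnt-high cells, by a log2 ratio of 0.19 (0.12 to 0.25) and 0.20 (0.14 to 0.27) in AE and of 0.15 (0.10 to 0.21) and 0.16 (0.10 to 0.21) in VE. This direction was seen in both libraries for 6 members in AE, all but *Insig1*, and for 6 members in VE, all but *Sqle*. Over all genes, 52.6% and 50.03% lay below 0 in the AE comparison and 61.3% and 58.7% in that of VE, in the wild-type and SP3KO libraries. VE as a whole was slightly below AE, by -0.06 (-0.11 to -0.02) and -0.10 (-0.15 to -0.06).

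Other measures moved with these classes. The 8 mitosis genes listed as a marker set were lowest in conflux AE, at 339 and 425 CPM summed against a median over classes of 1108 and 1028 CPM. Median mitochondrial shares were highest in conflux AE, at 7.68% and 7.97%, and 4.47% and 4.34% in IAC. The 7 erythroid genes summed to 127 and 133 CPM in conflux AE, against a median of 53.9 and 59.5 CPM. The 4 neural genes summed to 610 and 467 CPM for conflux AE and to 840 and 523 CPM for pre-HE, but nearly all of it was *Stmn2*, with *Sox2* and *Elavl3* at 0 in both classes. The 5 macrophage genes were at 106 and 176 CPM in IAC and at most 3.25 CPM elsewhere, and the mesenchymal genes at most at 13.01 CPM. The part of these genes and shares in the results was not tested. With filters chosen after seeing the data, in cells with no UMI of the erythroid list the summed log2 ratio of conflux AE to AE was 0.61 and 0.60, in cells with no UMI of the neural list 0.65 and 0.53, and in cells with at most 10% mitochondrial UMIs 0.60 and 0.54, beside 0.57 and 0.51 in all cells.

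When each cell was thinned to 5000 UMIs, with shallower cells left out, the 7 genes together gave a median of 3 UMIs per cell in conflux AE, 2 in both AE classes and 1 in IAC, in both libraries. The mean was 3.64 and 3.37 UMIs in conflux AE, 2.27 and 2.14 UMIs in pre-HE, and 1.05 and 1.24 UMIs in IAC. Cells with none of these UMIs made up 15.7% and 15.1% of conflux AE, 26.5% and 25.7% of pre-HE, and 41.3% and 34.0% of IAC. Conflux AE thus did not have fewer cells at 0 than AE, where the share was 11.3% to 14.7%, while its median and its upper quartile of 5 UMIs, against 4 in both AE classes, were higher. The thinned log2 ratio of conflux AE to AE was smaller than that over all UMIs, at 0.42 and 0.36, and that of pre-HE to AE was -0.26 and -0.30. For each gene, the top 5% of cells held 22.1% to 30.9% of the UMIs of *Hmgcs1*, *Idi1*, *Fdps*, *Fdft1*, *Sqle* and *Insig1*, and 55.0% and 56.5% of those of *Lss*, against 15.2% and 14.5% of all UMIs. Counting intervals do not cover that clustering of UMIs in few cells.

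**Figure D2:**
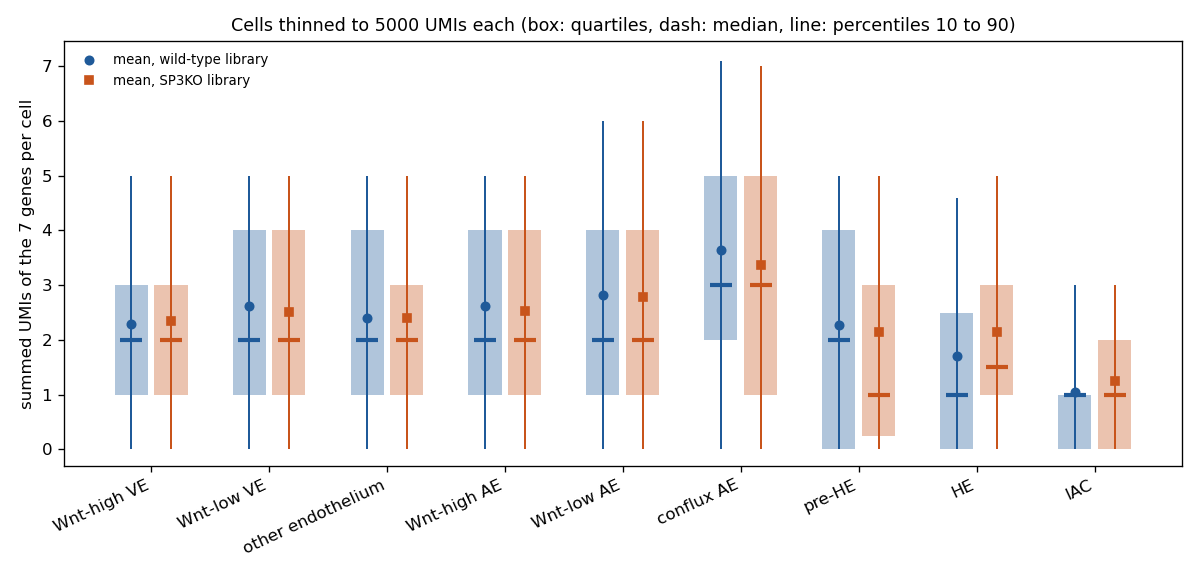
Summed UMIs of the 7 genes per cell (y axis) after thinning each cell to 5000 UMIs, by class (x axis), with boxes for quartiles, dashes for medians, lines for the percentiles from 10 to 90 and symbols for means, in blue for the wild-type and orange for the SP3KO library. The median is 3 UMIs in conflux AE and 1 UMI in IAC, and the ranges of all classes overlap.

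GC boxes were found in the 4 promoters that could be read, and those of *Fdps*, *Fdft1* and *Sqle* were not at hand. The comparison of the libraries asked whether the 7 genes shifted without SP3. Little difference was seen over the endothelium as a whole, taken as the sum of both AE and both VE classes, conflux AE and pre-HE. *Sp3* itself was at 46.3 CPM (wild type) and 35.6 CPM (SP3KO). The 3' tags need not lie in the deleted part, so that this level checks no label. *Sp1*, which binds the same GC boxes, was at 30.7 CPM in both. The 7 genes together were at 521 CPM (wild type) and 497 CPM (SP3KO), a log2 ratio of -0.07 (-0.10 to -0.04).

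By gene, *Fdps* fell from 134 to 123 CPM (log2 ratio -0.12, -0.17 to -0.06) and *Hmgcs1* was at 135 and 127 CPM (-0.10, -0.15 to -0.04). The intervals of the other members spanned 0. *Idi1* was at 93.7 and 90.4 CPM (-0.05), *Insig1* at 45.8 and 44.5 CPM (-0.04), *Lss* at 7.56 and 7.10 CPM (-0.09), *Fdft1* at 51.4 and 51.5 CPM (0.00) and *Sqle* at 53.5 and 53.9 CPM (0.01). Of 10146 genes with at least 200 UMIs, 4.04% were at least 1.2-fold higher and 8.82% at least 1.2-fold lower in the SP3KO library, and 0 of 7 members were in either group. The members' median of -0.05 stood beside -0.02 over all genes, whose central 95% ran from -0.52 to 0.33. With the 6 classes weighted alike the summed ratio was -0.023, and that of *Hmgcs1* 0.018.

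**Figure D3:**
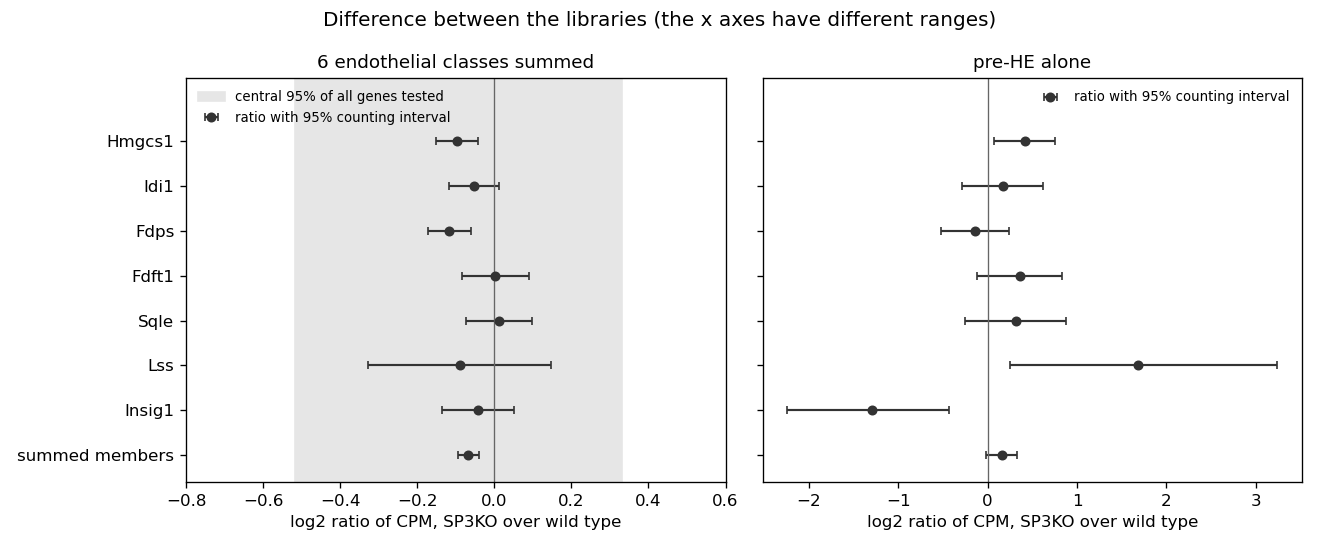
Log2 ratio of CPM between the SP3KO and the wild-type library (x axis) for each of the 7 genes and their sum (y axis), over 6 summed endothelial classes on the left and in pre-HE on the right, with points for ratios, bars for 95% counting intervals and a grey band for the central 95% of all genes tested. On the left every gene lies between -0.12 and 0.01, inside the band from -0.52 to 0.33, and on the right *Insig1* lies at -1.29 and *Lss* at 1.68 with wide intervals.

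Within single classes, 63 ratios were formed from 7 genes and 9 classes, of which 6 had an interval above 0, 6 one below 0 and 51 one that spanned 0. The share of such intervals over all genes was not counted, so these numbers are not read as a result about the members. The largest ratios of members whose interval left 0 were in pre-HE and HE, the classes with the fewest UMIs. In pre-HE *Insig1* was at 38.4 CPM (wild type, 59 UMIs) and 15.7 CPM (SP3KO, 14 UMIs), a log2 ratio of -1.29 (-2.24 to -0.43). In all, 36 of 136 wild-type and 13 of 92 SP3KO cells had a UMI of *Insig1*, and the 3 cells with the most held 14 and 4 of the UMIs. In the same class *Lss* had a log2 ratio of 1.68 (0.25 to 3.25) and *Hmgcs1* one of 0.42 (0.07 to 0.76), so that the members did not move together there, and their sum was at 435 and 485 CPM (0.16, -0.02 to 0.33).

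In HE *Hmgcs1* had a log2 ratio of 0.62 (0.21 to 1.03), from 93 and 114 UMIs. In the SP3KO library 43 of those 114 UMIs lay in 3 of the 40 cells and 22 in a single cell, whereas in the wild-type library the 3 highest cells held 24 of 93. In IAC *Idi1* had a ratio of 0.26 (0.02 to 0.49). *Fdps* was lower in the SP3KO library in 8 of 9 classes, with log2 ratios from -0.46 to 0.01 and 3 intervals below 0. *Fdft1* and *Sqle* had no interval away from 0 in any class.

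Relative to all transcripts, the remaining enzymes of the pathway, a list of 13 chosen from textbook knowledge, were like the 7 genes higher in conflux AE and lower in IAC. Between the Wnt classes they were not like them. They summed to 832 and 791 CPM for conflux AE, to 567 and 570 CPM for AE, and to 322 and 343 CPM for IAC. All UMIs per cell averaged 11329.5 and 10229.5 in conflux AE, 15678 and 15347 in AE, and 32941 and 32567 in IAC. Levels of the lists depend on these totals, and no count per cell is given for them. In conflux AE 12 of 13 were higher than in AE in both libraries, 2 of them, *Msmo1* and *Tm7sf2*, by 1.5-fold in both, which held for 7.21% of all genes. *Msmo1*, a sterol methyl oxidase and the one with the most UMIs, was at 179 and 186 CPM against 102 and 103 CPM, and *Cyp51*, the lanosterol demethylase, at 161 and 141 CPM against 91.8 and 100.4 CPM. The exception was *Ebp*, a sterol isomerase, with log2 ratios of -0.11 (-0.46 to 0.23) and -0.63 (-1.12 to -0.19). In IAC 12 of 13 were lower than in AE in both libraries, 7 of them by 1.5-fold, beside 22.4% of all genes. From conflux AE to pre-HE all 12 that passed the minimum were lower, 6 by 1.5-fold, beside 3.57% of all genes. With no fold required, 50.8% and 49.9% of all genes were below 0 in conflux AE over AE. The share was 49.8% and 49.7% in IAC over AE and 44.4% in each library from conflux AE to pre-HE. The log2 ratio of their sum in Wnt-low over Wnt-high cells was -0.09 (-0.15 to -0.03) and 0.09 (0.02 to 0.15) in AE and -0.04 (-0.10 to 0.01) and -0.04 (-0.09 to 0.02) in VE, where the 7 genes stood at 0.15 to 0.20. Between the libraries their median log2 ratio was 0.01, with *Sc5d*, a sterol desaturase, highest at 0.14 (0.03 to 0.25) and *Pmvk*, phosphomevalonate kinase, lowest at -0.15 (-0.24 to -0.07).

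On the same relative scale, genes next to the pathway shared that shape in part. The 6 genes of the isoprenoid branch did not show it, and the genes of sterol sensing showed its first side. Those of sterol entry and handling showed both sides, and those of fatty acid synthesis did so only as a sum. The sum of the efflux and LXR genes was below AE in conflux AE as well as in IAC. The 6 genes of the isoprenoid branch, which leads to prenylation, dolichol and heme A, summed to 170 and 166 CPM for conflux AE, to 169 and 160 CPM for AE and to 160 and 149 CPM for IAC, with every interval of the ratio to AE spanning 0. The 8 genes of sterol sensing summed to 211 and 230 CPM for conflux AE, to 184 and 171 CPM for AE and to 176 and 160 CPM for IAC. In conflux AE 7 of these 8 were higher than in AE in both libraries, and in IAC 3 were higher and 3 lower. Of all genes, 50.8% and 49.9% were below 0 in conflux AE over AE and 49.8% and 49.7% in IAC over AE. *Scap*, the escort of SREBP2, was higher than in AE in conflux AE and in IAC, with log2 ratios in IAC of 0.97 (0.47 to 1.46) and 1.47 (0.90 to 2.02), opposite to the members. *Srebf2*, which encodes SREBP2 and was named after its values were seen, was at 37.4 and 35.7 CPM in AE and 42.5 and 43.9 CPM in IAC.

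Genes of sterol entry and handling summed to 461 and 449 CPM in AE and to 609 and 606 CPM in conflux AE, where 7 of the 8 measured were higher than in AE in both libraries. They stayed high in pre-HE, at 670 and 695 CPM, and were at 271 and 279 CPM in IAC, where 6 of 8 were lower than in AE in both. At the step from conflux AE to pre-HE, where all 6 measured members were lower in both libraries, 5 of 7 of these genes were higher in both. Among them were *Npc1* and *Npc2*, which carry cholesterol out of lysosomes. *Npc1* went from 51.2 and 45.8 CPM to 61.2 and 51.6 CPM, and *Npc2* from 199 and 189 CPM to 219 and 221 CPM, with Poisson intervals that overlap between the classes. Of all genes, 44.4% were below 0 in each library at that step. The shares were 50.8% and 49.9% in conflux AE over AE and 49.8% and 49.7% in IAC over AE. The efflux pump gene *Abca1*, induced by sterol surplus through LXR, was at 137 and 136 CPM among conflux AE cells and at 131 and 142 CPM among AE cells, but at 9.96 and 19.5 CPM in IAC. The efflux and LXR list summed to a log2 ratio to AE of -0.30 (-0.46 to -0.15) and -0.41 (-0.60 to -0.22) in conflux AE. In IAC the ratio was -2.66 (-2.90 to -2.42) and -2.51 (-2.77 to -2.27). Of the 3 genes measured in conflux AE, *Abcg1* was lower than in AE in both libraries and *Nr1h2* higher in both. The genes of fatty acid synthesis summed to a log2 ratio to AE of 0.32 (0.23 to 0.41) and 0.19 (0.08 to 0.30) in conflux AE and of -0.38 (-0.46 to -0.30) and -0.38 (-0.47 to -0.29) in IAC. In conflux AE 3 of 7 measured were higher and 2 lower in both libraries, and in IAC 4 were higher and 2 lower. The median log2 ratio of the list was 0.03 and -0.06 in conflux AE and 0.33 and 0.11 in IAC. In the wild-type sum of 6 endothelial classes, *Scd2* gave 9666 of the 17968 UMIs of the list. Single genes divided in IAC. *Scd2*, a fatty acid desaturase, was lower than in AE, by -1.39 (-1.54 to -1.24) and -1.40 (-1.56 to -1.24), while *Acly*, which supplies cytosolic acetyl-CoA, was at 0.08 and 0.11 with intervals that span 0. *Fasn* and *Acaca*, the enzymes of the chain itself and named after their values were seen, were higher, with log2 ratios of 1.00 (0.77 to 1.22) and 1.15 (0.90 to 1.40) for *Fasn* and of 1.33 (1.01 to 1.66) and 1.69 (1.32 to 2.07) for *Acaca*.

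Between the libraries the medians of these lists ran from -0.13 for sterol entry and handling to 0.09 for efflux and LXR, and the last turned to -0.12 with the classes weighted alike. Of the 8 measured genes of sterol entry and handling, 5 had an interval below 0 and 2 one above 0. Those below were *Npc1*, *Mylip*, *Scarb1*, a receptor for high-density lipoprotein, at -0.19 (-0.31 to -0.08), *Stard4*, a sterol carrier, at -0.19 (-0.27 to -0.12), and *Npc2* at -0.08 (-0.13 to -0.02). How many of all genes had an interval away from 0 was not counted, so these counts are not read as a shift of the list. Past 1.2-fold were *Npc1* at -0.39 (-0.54 to -0.24), *Mylip* at -0.34 (-0.57 to -0.11), *Vldlr*, a lipoprotein receptor, at 0.28 (0.03 to 0.53), *Pggt1b*, a prenyltransferase subunit, at -0.31 (-0.47 to -0.14), and *Scd1*, a desaturase, at -0.47 (-0.86 to -0.09).

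**Figure D4:**
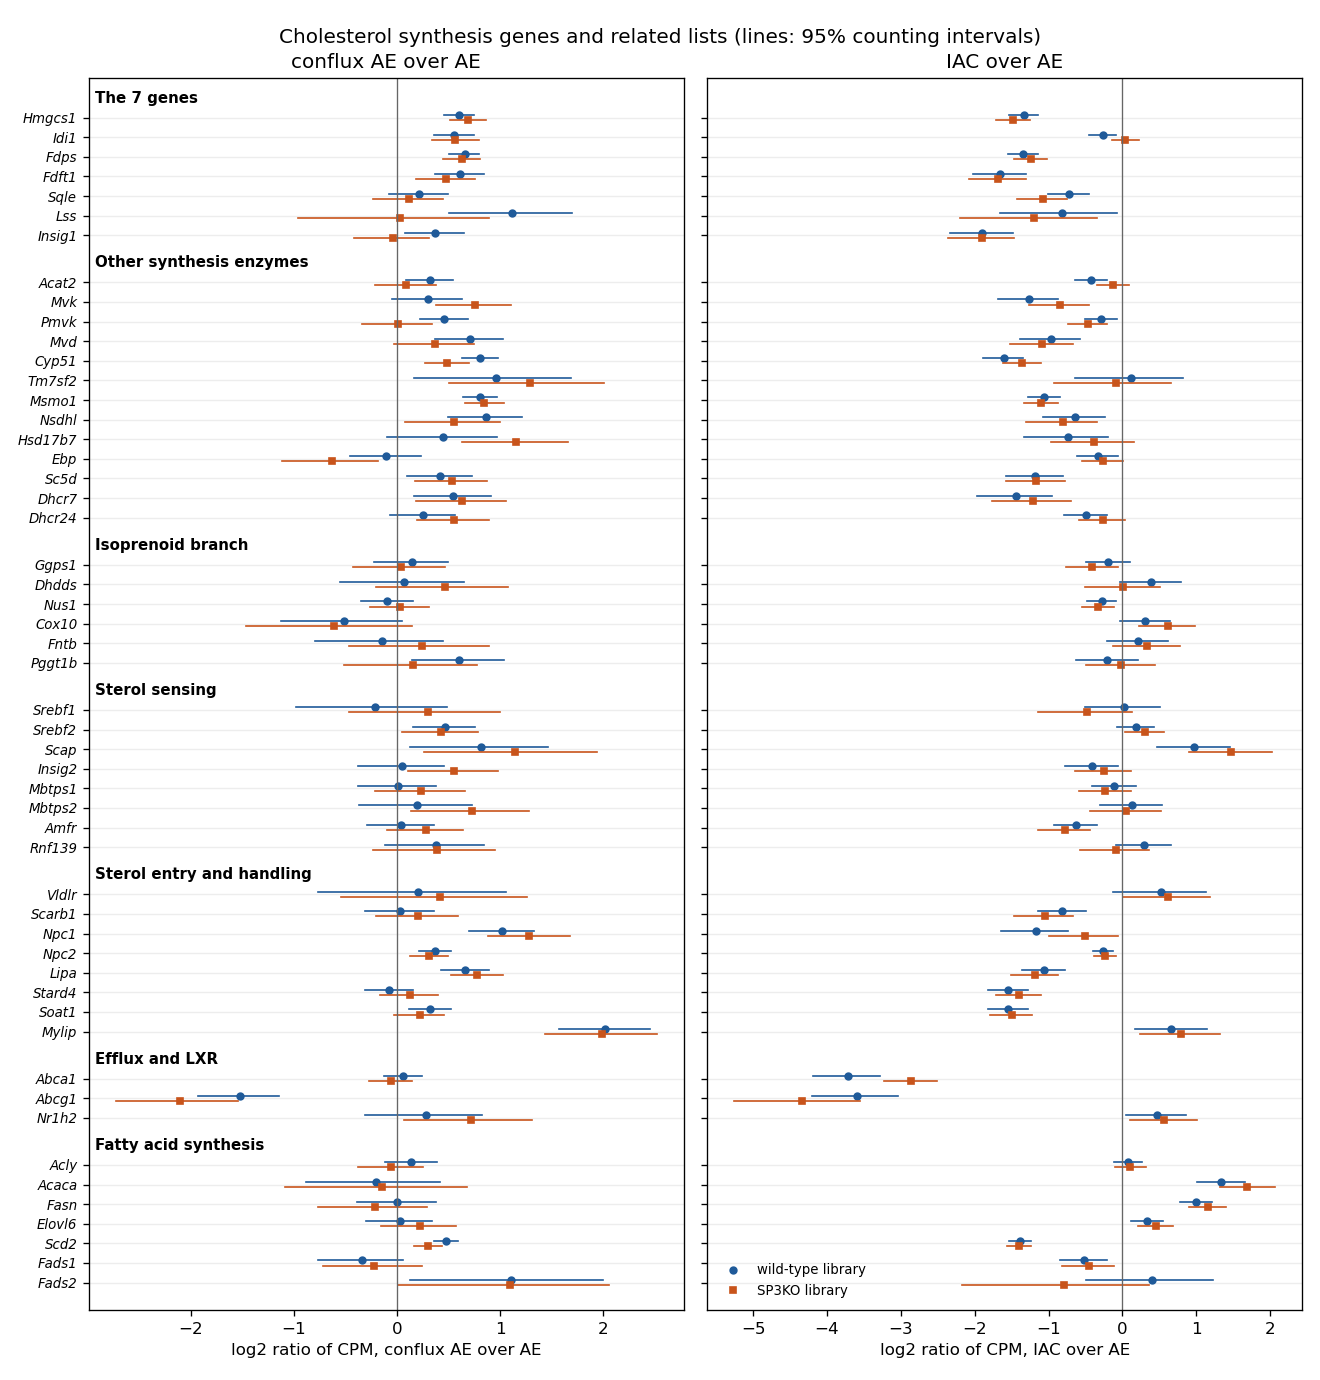
Log2 ratio of CPM in conflux AE over AE (left) and in IAC over AE (right) for the 7 genes and for 6 lists of related genes (y axis), with circles for the wild-type, squares for the SP3KO library and lines for 95% counting intervals, shown for genes with at least 50 UMIs over the pair of classes in each library. Most synthesis enzymes lie right of 0 in conflux AE and left of 0 in IAC, whereas the isoprenoid branch lies around 0 and *Fasn* and *Acaca* lie right of 0 in IAC.

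Across the 18 points formed by 9 classes in both libraries, the members followed each other with a Pearson correlation of log2(CPM + 1) between 0.42 and 0.93 and a median of 0.75 over 21 pairs. The highest was that of *Hmgcs1* with *Fdft1*. The points share libraries, depth and cell totals, so these values describe a profile and carry no test. The mean profile of the 7 genes contains each member, which raises the member's own correlation with it. Against this profile, *Hmgcs1* stood at 0.95, *Fdps* at 0.94, *Fdft1* at 0.92, *Sqle* at 0.90, *Insig1* at 0.82, *Lss* at 0.81 and *Idi1* at 0.69. Among 10983 genes ranked by likeness to that profile, the 10 highest outside the members were *Sgcb* at 0.96, *Rasgrp3* and *Gemin7* at 0.95, *Mmp15* and *Akr1a1* at 0.95, *Ralb*, *Sh3bgrl* and *Cyp51* at 0.94, and *Tmem88* and *Degs1* at 0.94. Of these, only *Cyp51* was in the list of synthesis enzymes. *Sp3* stood at -0.33, *Sp1* at -0.78 and *Srebf2* at -0.22 on the same measure. Across single cells within classes, thinned to 5000 UMIs, pairs of members correlated at 0.01 to 0.14, which in counts this sparse is no finding.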

How the data were processed

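Single-cell RNA-seq of 1 wild-type and 1 SP3KO library was analysed. What was deposited are unnormalized UMI counts for each gene in each cell. According to the labels and methods, the authors aligned the reads to mm10 (GRCm38) with Cell Ranger (version not stated), removed cells under 1000 UMIs or 1000 genes as well as contaminating types, and took each class from the nearest cells of a reference map, with ties broken at random. The deposited fraction of mitochondrial UMIs per cell was used as given, and 2 other columns were not used. Mislabelled cells would draw the classes together. Arterial cells are more numerous in the deposited classes than in the listing of the study, and the reason is not known here.

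UMIs were summed per class and library and divided by the class total (CPM). CPM carry exact Poisson intervals and ratios exact conditional intervals at 95%. They were tried first on simulated independent counts, without clustering of UMIs in cells. That checks the computation and not the coverage in these data. Both cover counting error only. PCR duplicates are removed by the UMIs, and precision follows from 79456081 and 71154918 UMIs. The members, lists and tests were chosen with earlier results of these data known. Named are the members, *Sp3*, *Sp1*, the most abundant, highest and lowest gene of each list by library ratio, and the 10 genes most like the members. Named after their values were seen were *Ebp*, *Srebf2*, *Fasn*, *Acaca*, *Mylip*, *Scarb1*, *Stard4*, *Tm7sf2*, *Abcg1*, *Stmn2* and single marker genes. Scrublet in scanpy 1.11.5 called 1 of 8405 cells, 0.0119%. No cell was removed as a doublet, so doublets may remain, and their number is not known here. Alternatives were edgeR 4.0.16 TMM factors, DESeq2 1.42.0 size factors, other weights, other sets of cells and thinning to 5000 UMIs. Python 3.11.15, numpy 2.4.6 and scipy 1.17.1 were used.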

Additional observations from a re-analysis of the deposited data

Results flagged for a closer look

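The log2 ratio of *Hmgcs1* between the SP3KO and the wild-type library was 0.62 in HE and -0.10 in Wnt-low VE, with counting intervals on opposite sides of 0. The difference between these classes was not tested, since each genotype was captured once. In HE 43 of the 114 SP3KO UMIs of *Hmgcs1* lay in 3 cells.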

How the results depend on the processing

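No paired analysis was possible because each genotype has 1 library, and no replicate could be left out. Under 15 alternatives the summed ratio of the libraries kept its sign, from -0.091 to -0.022. It was -0.023 with the classes weighted alike, -0.022 over all cells and -0.027 with other endothelium added, against -0.07. Of 112 alternative values for single members 98 kept their sign, and among the ratios whose interval left 0 the only change of sign was that of *Hmgcs1*, to 0.018 with the classes weighted alike. With that weighting the median of the members was 0.018, that of efflux and LXR -0.12 and that of fatty acid synthesis 0.0062. With a minimum of 50 UMIs 815 genes were higher and 1455 lower by 1.2-fold, and with 1000 UMIs 130 and 293, against 410 and 895.

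Of 80 alternative values for stages 79 kept their sign. The wild-type ratio to AE was, thinned, -0.12 in VE, 0.42 in conflux AE and -1.38 in IAC. With Wnt-low AE as the base it was -0.15 in VE and 0.48 in conflux AE, and with cells weighted alike -0.13 in VE and -1.23 in IAC. In cells with no UMI of the neural list it was 0.65 in conflux AE, -0.11 in pre-HE and -0.92 in HE, and with no UMI of the erythroid list -1.41 in IAC. The SP3KO ratio was, thinned, -0.30 in pre-HE and 0.36 in conflux AE. With Wnt-low AE as the base it was -0.23 in VE, 0.39 in conflux AE and -1.17 in IAC, and with cells weighted alike -0.15 in VE and 0.41 in conflux AE. With no UMI of the neural list it was -0.64 in HE, and with no UMI of the erythroid list -0.17 in VE and -0.72 in IAC. The cause of these shifts was not tested. The filters on neural, erythroid and mitochondrial UMIs were chosen after seeing the data. In HE, where the ratio of *Hmgcs1* had an interval from 0.21 to 1.03, only large differences were detectable at this depth.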
